A study of Mus musculus with 12 samples.

Results

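Peaks of transcription initiation near 10 marker genes of somatic testis cells were read in spermatocyte fractions from prophase I of male meiosis. The 10 genes are among the 21911 protein-coding genes of the GENCODE M21 annotation. Sox9, Gata4, Wt1, Amh and Cldn11 are markers of Sertoli cells, Star, Cyp17a1, Cyp11a1 and Insl3 are markers of Leydig cells, and Acta2 marks peritubular myoid cells. A gene was taken as called in a substage when a peak of that substage had its edge under 1000 bp from any annotated transcription start site (TSS) of the gene. The rule uses no score, although the genes were picked for study with earlier results of these data known. Of the peaks, 3 of 71107 in leptonema/zygonema, 7 of 68352 in pachynema and 7 of 38603 in diplonema met this rule.

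The peaks come from leChRO-seq, in which engaged RNA polymerase on isolated chromatin is allowed to extend its transcript in the presence of a biotinylated nucleotide, so that nascent RNA can be pulled down and sequenced. Spermatocytes of adult wild-type mice were enriched by STAPUT, a sedimentation of cells through an albumin gradient, for leptonema/zygonema, pachynema or diplonema, with 4 libraries per substage. Purity was judged in the study by staining of meiotic markers, and spermatogenic cells of other stages are named there as potential contaminants. The study's results name elongated spermatids as most of the contamination in every fraction. A C57Bl/6J and a DBA/2J background are both named in the methods, without saying which one these libraries had. Peaks were called with dREG, a machine-learning tool that scores the divergent read pattern left by transcription initiation. The name of each list marks it as merged, which was read as the 4 libraries of a substage pooled before calling. Each substage therefore has 1 list, every value below is a single pooled value without replicate spread, and no test between substages was made. The lists hold no read counts, so the depth behind each pooled list was not determined here, and the shorter diplonema list has fewer chances to hold a peak near any gene. The dREG score has no fixed range and was not scaled between substages. For that reason the main scores are given with a percentile, the percent of peaks in the same list with a score at or below it.

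Sertoli cells are the supporting cells of the seminiferous epithelium. They hold the germ cells, form the blood-testis barrier with tight junctions and direct testis formation in the embryo. Leydig cells lie between the tubules and make androgens from cholesterol, and peritubular myoid cells are the contractile layer around each tubule. None of these cells is meiotic, although all are part of the tissue from which the fractions were made. In a bulk fraction, fewer somatic cells and less RNA made per cell cannot be told apart, and neither can initiation in residual somatic cells and low initiation in the spermatocytes themselves.

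In leptonema/zygonema 2 of the 10 genes were called, Sox9 and Gata4 (20%, Wilson 95% interval 5.67 to 51.0%), when 60.2% of all protein-coding genes were. In pachynema 5 of 10 were called, with Wt1, Cldn11 and Cyp11a1 added to the same pair (50%, interval 23.7 to 76.3%), against 60.5% of protein-coding genes. In diplonema 3 of 10 were called, Sox9, Gata4 and Wt1 (30%, interval 10.8 to 60.3%), against 51.6% of protein-coding genes. These intervals cover the counting of genes only. When each list was limited to its 38603 highest-scoring peaks, the length of the diplonema list, 1, 3 and 3 of the genes were called, against 52.7, 53.2 and 51.6% of protein-coding genes. Both Sox9 and Gata4 were called in all 3 substages, as were 49.5% of protein-coding genes. That count of 2 genes was 1 in the lists of equal size, where Sox9 was lost in leptonema/zygonema, and 0 at a score of at least 0.5. Amh, Star, Cyp17a1, Insl3 and Acta2 were called in no substage, as were 35.8%. By the cell type each gene was listed for, 4 of the 5 Sertoli genes (with Gata4, which Leydig cells also express, among them), 1 of the 4 Leydig genes and 0 of 1 myoid gene had a peak in any substage.

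The called marker genes scored lower than most called genes. The highest peak of a called protein-coding gene had a median score of 1.05, 1.03 and 0.834 in order of substage, at percentiles 83.0, 84.6 and 78.6 of those lists. Each of the 5 called marker genes lay below that median in each substage in which it was called. The highest peak was below the median of all peaks in its list, which was 0.586, 0.572 and 0.532, for 1 of 2, 2 of 5 and 2 of 3 called marker genes, and for 14.4, 15.3 and 20.4% of called protein-coding genes.

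**Figure D1:**
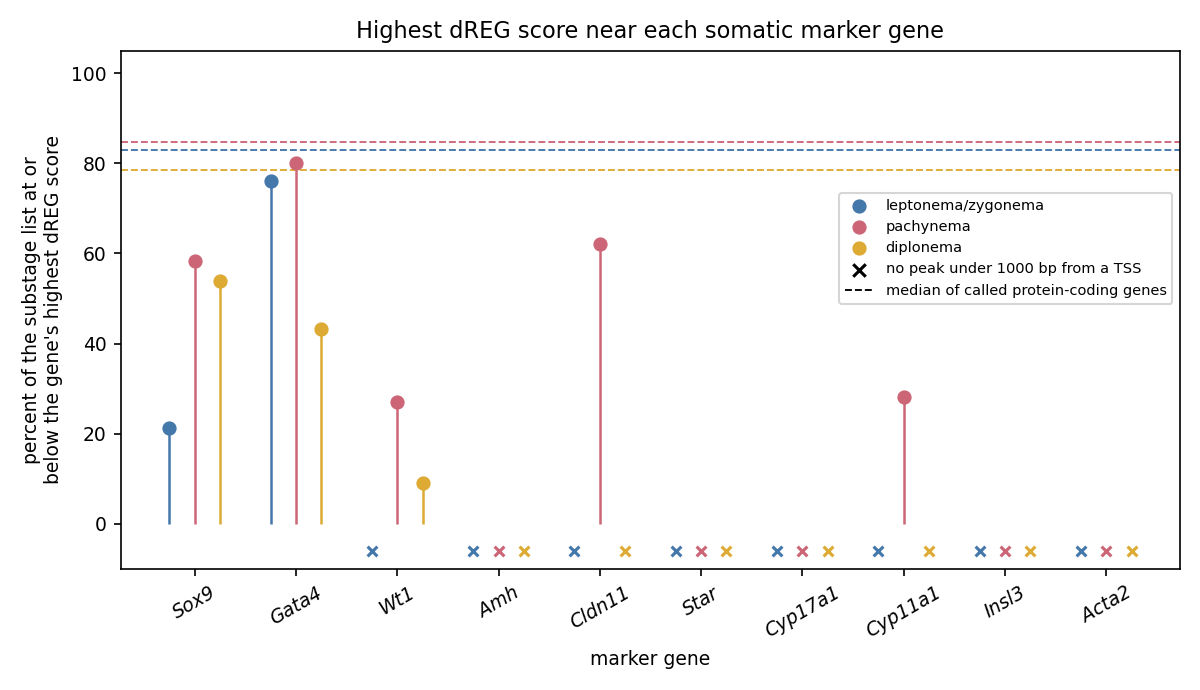
Highest dREG score within 1000 bp of a TSS of each somatic marker gene, given as the percent of the substage list at or below that score (vertical axis, percent). Dots are called genes, crosses placed below 0 are genes without a peak, colours are substages and dashed lines are the medians of called protein-coding genes (83.0, 84.6 and 78.6). Gata4 in pachynema reached 80.0 and all other dots lie lower, and 5 genes have crosses only.

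Sox9 encodes the HMG-box factor that drives Sertoli cell differentiation. It has a single TSS, at position 112782224 on the plus strand of chromosome 11 (mm10, ENSMUSG00000000567.5, gene body to 112787760), and a peak covered it in each substage. The leptonema/zygonema peak (112781961 to 112782310) scored 0.385 at percentile 21.2, with a deposited p-value of 0. An exact 0 is deposited for 20914, 19008 and 9307 peaks of the 3 lists in order of substage, low-scoring ones among them, so it was not read as strength. The pachynema peak (112781881 to 112782290) scored 0.652 at percentile 58.3 with a deposited p-value of 2.41e-06, and the diplonema peak (112781861 to 112782360) scored 0.533 at percentile 50.2 with a deposited p-value of 1.8e-05. The peak at the start thus stood low in its list in leptonema/zygonema, above the list median in pachynema and at the list median in diplonema. A further peak lay upstream in the later substages, 514 bp from the TSS in pachynema (112781161 to 112781710, score 0.359) and 604 bp in diplonema (112781261 to 112781620, score 0.564). In diplonema this upstream peak was the higher-scoring of the pair. The TSS of BC006965, a processed transcript, lay inside the Sox9 start peak in every substage and 266 and 356 bp from the upstream peaks. The lists carry no strand, so which of the genes these peaks belong to cannot be told apart.

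Gata4 encodes a zinc-finger factor of Sertoli and Leydig cells that is needed for testis development. It lies on the minus strand of chromosome 14 (63198922 to 63271692, ENSMUSG00000021944.15) and has 5 annotated TSSs. The TSSs at 63245248 and 63245271 were inside a peak in all 3 substages. That peak scored 0.925 in leptonema/zygonema (63245171 to 63245480, percentile 76.1, deposited p-value 2.51e-11). In pachynema it scored 0.946 (63245141 to 63245680, percentile 80.0, deposited p-value 3.73e-14). In diplonema it scored 0.482 (63245141 to 63245490, percentile 43.2, deposited p-value 0.000301). Gata4 therefore had the highest-scoring start peak of the 10 genes in leptonema/zygonema and pachynema, and in diplonema the highest was that of Sox9. A weaker companion lay 230 bp upstream in leptonema/zygonema (score 0.431) and 240 bp upstream in diplonema (score 0.287), over sequence that the single longer pachynema peak also reached. At the upstream TSS, 63271692, there was a pachynema peak 259 bp away (63271951 to 63272240, score 0.309) and a diplonema peak over it (63271561 to 63271840, score 0.295), with deposited p-values of 0.0395 and 0.0467, close to the limit of 0.05 in the lists. The remaining diplonema peak (63246181 to 63246610) was 910 bp from the nearest TSS, and its score of 0.261 was at percentile 0.637. The nearest TSS of another gene was at least 45505 bp from any of these peaks, so no neighbouring start shares them.

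Wt1 encodes a zinc-finger factor that maintains Sertoli cell identity. The gene is on the plus strand of chromosome 2 (105126529 to 105173616, ENSMUSG00000016458.14, 8 TSSs). No peak was called near it in leptonema/zygonema, where the nearest one was 9288 bp away with a score of 0.574. A peak covered the first TSS in pachynema (105126161 to 105126700), with a score of 0.408, percentile 27.0 and a deposited p-value of 0.00306. In diplonema the corresponding peak (105126001 to 105126580) scored 0.311 at percentile 9.13, with a deposited p-value of 0. The start of the antisense gene Wt1os was inside both peaks, and a TSS of Gm27308 was under 1000 bp from both. The lists carry no strand to assign these peaks by. The pattern of a call in pachynema and diplonema alone was found for 314 protein-coding genes (1.43%). In lists of equal size Wt1 was called in diplonema alone, and at a score of at least 0.5 it had no call.

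Amh encodes anti-Müllerian hormone, which Sertoli cells secrete before puberty to regress the Müllerian ducts. It has 1 TSS on chromosome 10 (80805243 to 80807648, plus strand, ENSMUSG00000035262.5), and no substage had a peak within 1000 bp of it. The nearest peak was 6093 bp away in leptonema/zygonema (score 0.763) and 5863 bp away in pachynema (score 0.77), in each case over the TSS of Sf3a2, which encodes a splicing factor subunit. In diplonema it was 1418 bp away inside the Amh gene body (80806661 to 80807050), with a score of 0.301. With the diplonema Gata4 peak at 910 bp just inside the distance limit, this Amh peak and a pachynema peak 1090 bp from a Gata4 TSS (score 0.394) were the closest ones just outside it.

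Cldn11 encodes claudin 11, a tight-junction protein of the blood-testis barrier. Its only TSS is at 31149920 on the plus strand of chromosome 3 (gene body to 31164324, ENSMUSG00000037625.7). A peak lay over it in pachynema alone (31149631 to 31150040), with a score of 0.695, percentile 62.2 and a deposited p-value of 9.71e-08. The nearest other TSS, that of Skil, was 52798 bp from the peak, so no neighbouring start shares it. In leptonema/zygonema and diplonema the nearest peaks were 17190 bp (score 0.644) and 17710 bp (score 0.369) away. Pachynema-only calls were made for 459 protein-coding genes (2.09%). The RefSeq promoter of Cldn11 (GRCm38.p6, chr3:31149670-31149969, plus strand, 250 bases before and 50 from the start on) is shown because the peak spans it. Capitals mark matches, on either strand, of any of TATAA (the TATA box), GGGCGG (the GC box), CCAAT (the CCAAT box), AGGTCA (a half-site of nuclear receptors) and the strict consensus of the CArG box of serum response factor, which were found in 21.9%, 48.0%, 38.7%, 14.2% and 1.54% of 16522 RefSeq promoters of the same length.
Cldn11: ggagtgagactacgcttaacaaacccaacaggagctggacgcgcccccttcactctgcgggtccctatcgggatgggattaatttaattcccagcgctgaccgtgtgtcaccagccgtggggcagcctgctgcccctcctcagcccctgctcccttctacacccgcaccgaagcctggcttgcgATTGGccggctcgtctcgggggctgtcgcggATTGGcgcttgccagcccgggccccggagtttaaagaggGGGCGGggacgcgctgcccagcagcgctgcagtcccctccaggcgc
It holds CCAAT on the opposite strand at 66 and 35 bases before the start and GGGCGG 4 bases after it. A match is a description of the letters and not a bound site.

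**Figure D2:**
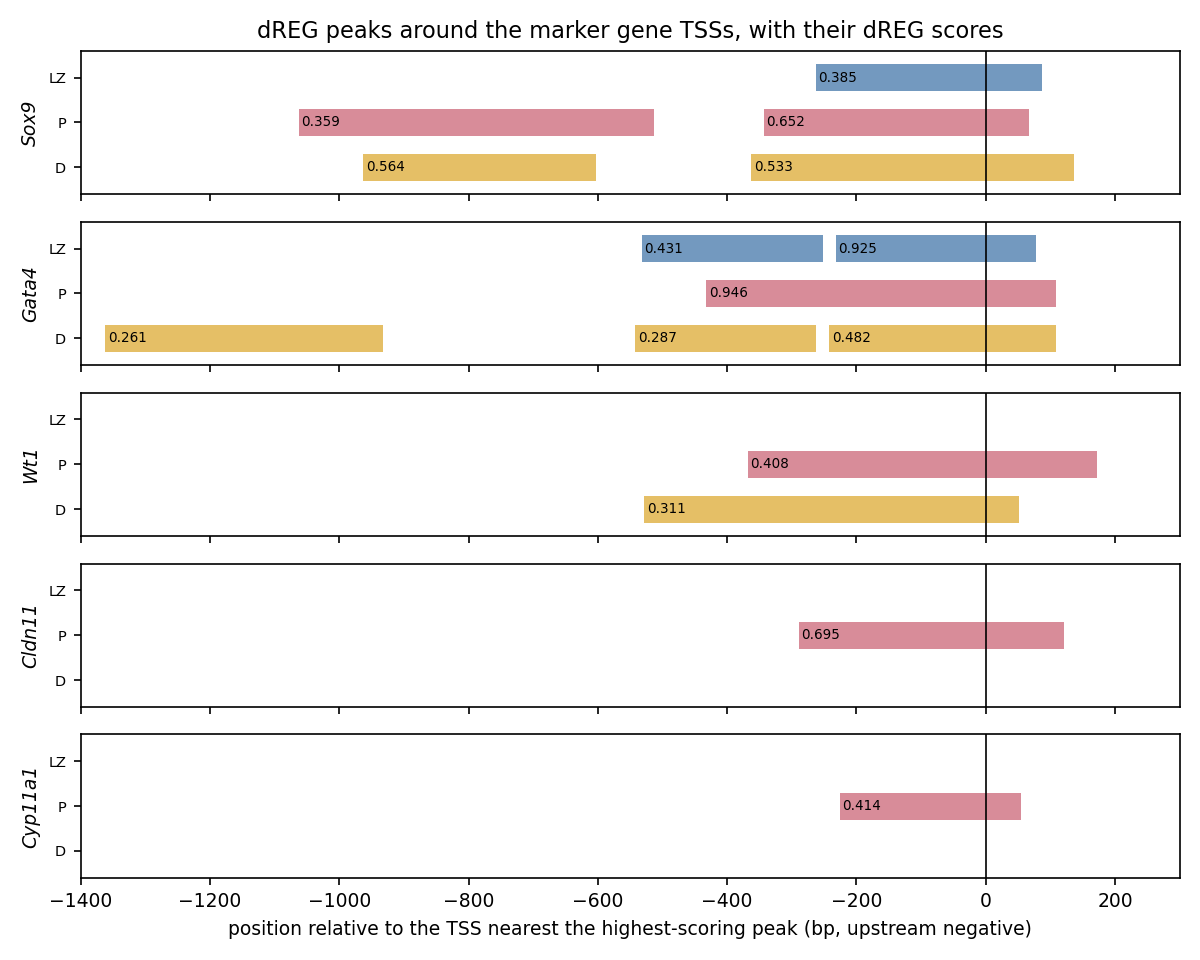
Peaks around the starts of the 5 called marker genes with rows marked LZ for leptonema/zygonema, P for pachynema and D for diplonema. The horizontal axis is the distance in bp from the TSS nearest the gene's highest-scoring peak, with upstream negative, and each bar is a peak with its dREG score printed in it. Gata4 peaks at its upstream TSS are not drawn. Sox9 and Gata4 have a bar across the start in each row, Wt1 in P and D, and Cldn11 and Cyp11a1 in P alone.

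Gata4, which Leydig cells also express, was listed for Sertoli cells, and Cyp11a1 was the only one of the 10 genes listed for Leydig cells to have a call. Cyp11a1 encodes the side-chain cleavage enzyme that makes pregnenolone from cholesterol in mitochondria, and it lies on the plus strand of chromosome 9 (58006411 to 58027023, ENSMUSG00000032323.13, 4 TSSs). Its pachynema peak (58014771 to 58015050) scored 0.414 at percentile 28.1, with a deposited p-value of 0.0204. This call was lost at a score of at least 0.5, at a p-value of at most 0.01 and in lists of equal size. The peak was not at the first TSS of the gene. It contained the TSS at 58014997, which GENCODE assigns to a transcript with a retained intron. A protein-coding TSS of the gene, at 58014671, was outside the peak but under 1000 bp from it. The call was kept when only TSSs of protein-coding transcripts were used. Ccdc33 had the nearest TSS of another gene, 15926 bp away. In leptonema/zygonema and diplonema the nearest peaks were 66011 and 84645 bp from any Cyp11a1 TSS. Of the RefSeq promoters of the gene, the one that the pachynema peak overlaps (GRCm38.p6, chr9:58014702-58015001, plus strand) is shown with the same motifs in capitals.
Cyp11a1: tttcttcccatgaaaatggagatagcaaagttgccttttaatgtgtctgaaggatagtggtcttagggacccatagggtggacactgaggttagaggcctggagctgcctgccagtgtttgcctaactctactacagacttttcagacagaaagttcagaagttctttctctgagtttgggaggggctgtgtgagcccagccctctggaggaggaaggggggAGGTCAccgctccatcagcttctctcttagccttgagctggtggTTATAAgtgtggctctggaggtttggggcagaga
AGGTCA is 28 bases before the RefSeq start. TATAA is on both strands in the overlapping letters TTATAA, 16 and 17 bases after the RefSeq start and 29 and 28 bp before the GENCODE start at 58014997. The other RefSeq promoter, with its start at 57998024, was 10837 bp from the nearest pachynema peak.

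Star, Cyp17a1 and Insl3 were called in no substage. Star encodes the protein that carries cholesterol into mitochondria for steroid synthesis, and it is on chromosome 8 (25806555 to 25815982, plus strand, ENSMUSG00000031574.8). Its nearest peaks were 20345, 20385 and 20385 bp away in leptonema/zygonema, pachynema and diplonema. Cyp17a1 encodes the hydroxylase and lyase of androgen synthesis, on chromosome 19 (46667165 to 46673172, minus strand, ENSMUSG00000003555.8). Its nearest peaks were 2633 bp (score 0.871), 2763 bp (score 0.371) and 16379 bp (score 1.01) away in the same order, the first of them 165 bp from a TSS of AC156982.1 and the last over the TSS of Borcs7. Insl3 encodes the insulin-like hormone of testis descent, on chromosome 8 (71689214 to 71690575, plus strand, ENSMUSG00000079019.2). The nearest peaks to Insl3 were 2284 bp (score 0.666), 2494 bp (score 0.279) and 12304 bp (score 0.703) away, the last over the TSS of Jak3. All 3 of these Leydig genes thus lacked a peak at their starts, while neighbouring genes within 50 kb had them in every substage, with scores of up to 1.35, 1.27 and 1.21 around Star, 1.05, 1.16 and 1.05 around Cyp17a1 and 0.756, 0.768 and 0.703 around Insl3. The RefSeq promoter of Insl3 (GRCm38.p6, chr8:71689002-71689301, plus strand) is given as a promoter without a peak, and it holds GGGCGG and the letters TTATAA, with TATAA 31 and 30 bases before the RefSeq start and 7 and 8 bp after the GENCODE start.
Insl3: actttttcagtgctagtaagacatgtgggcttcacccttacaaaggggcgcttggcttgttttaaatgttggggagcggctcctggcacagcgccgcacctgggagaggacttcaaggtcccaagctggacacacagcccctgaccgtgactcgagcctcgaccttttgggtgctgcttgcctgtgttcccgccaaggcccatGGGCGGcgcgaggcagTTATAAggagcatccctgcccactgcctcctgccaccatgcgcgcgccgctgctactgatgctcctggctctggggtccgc

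Acta2 encodes smooth muscle actin, the contractile protein of peritubular myoid cells and of vessel walls. It is on the minus strand of chromosome 19 (34241090 to 34255590, ENSMUSG00000035783.9, 2 TSSs). The nearest peaks were 16540 bp (score 0.681), 14621 bp (score 0.399) and 14881 bp (score 0.335) away in leptonema/zygonema, pachynema and diplonema. No peak lay over either Acta2 start in any substage. Its RefSeq promoter (GRCm38.p6, chr19:34255324-34255623, minus strand) holds a TATAA at position 10 after the RefSeq start and no exact match to the strict CArG consensus. Sites that differ from that consensus by a base were not searched for.
Acta2: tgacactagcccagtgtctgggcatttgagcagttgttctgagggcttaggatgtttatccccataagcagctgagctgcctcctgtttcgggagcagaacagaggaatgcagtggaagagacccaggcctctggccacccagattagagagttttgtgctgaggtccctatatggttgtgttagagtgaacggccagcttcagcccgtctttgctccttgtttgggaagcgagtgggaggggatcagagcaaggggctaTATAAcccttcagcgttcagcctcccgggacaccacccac
Sox9, Gata4, Wt1, Amh, Star and Cyp17a1 were not matched in the RefSeq promoter table.

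Around the genes, peaks within 50 kb were sorted into those at a marker gene TSS, those under 1000 bp from the TSS of another gene, those in the marker gene's body and the distal rest. Distal peaks numbered 24, 21 and 7 in order of substage, and they were near 9, 8 and 4 of the 10 genes. Over all protein-coding genes, 65.3, 61.7 and 36.5% had such a peak, so the count was lower in diplonema there too. Gene-body peaks numbered 2, 10 and 2, in 2, 3 and 2 of the 10 genes, against 26.1, 24.2 and 13.3% of protein-coding genes. The 10 in pachynema were 6 in Gata4 (scores 0.337 to 0.395), 3 in Cyp11a1 and 1 in Wt1 (score 0.347). Those in Cyp11a1 ran from 58008861 to 58009360 (score 0.429), from 58011101 to 58011350 (score 0.501) and from 58011621 to 58012030 (score 0.384). With the peak at 58014771 they made a group of 4 pachynema peaks across the first part of a gene that had none in the other lists. The single leptonema/zygonema peak in Gata4 (63256001 to 63256400) scored 0.695, and both later lists held peaks overlapping it, with scores of 0.375 in pachynema and 0.344 in diplonema. Upstream of Wt1, a peak 38109 bp from the TSS scored 1.28 in leptonema/zygonema (105087761 to 105088420, percentile 96.1), the list in which the Wt1 start had no call. At the same place the pachynema peak scored 0.679 (105087811 to 105088330, percentile 60.7), and diplonema had none. Upstream of Cldn11, about the same stretch held a peak in each substage, with highest scores of 0.644, 0.625 and 0.369, although the Cldn11 start was called in pachynema alone. Which gene a distal peak acts on was not tested.

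The 10 genes are a short list, so 10 wider lists of marker genes were read with the same rule. Other Sertoli genes were called in 12, 15 and 11 of 24 in leptonema/zygonema, pachynema and diplonema (50.0, 62.5 and 45.8%). The highest leptonema/zygonema scores among them were those of Ctsl, a lysosomal protease (1.40), Tjp1, a junction scaffold of many epithelia (1.10), Dmrt1, which spermatogonia also use (1.07), and Kitl, the ligand of the Kit receptor (0.694). Other Leydig genes were called in 10, 13 and 10 of 19 (52.6, 68.4 and 52.6%), led in leptonema/zygonema by Fdx1 (1.27), Por (1.13), Nr2f2 (1.13) and Fdxr (1.07). Of these, Fdx1, Por and Fdxr carry electrons to cytochrome P450 enzymes in many tissues. Other myoid genes were called in 7, 7 and 4 of 14 (50.0, 50.0 and 28.6%), led in leptonema/zygonema by Srf (1.24), Mylk (1.10), Actg2 (1.09) and Smtn (1.06). Shares of these 3 lists were at or below those of all protein-coding genes, with exceptions in other Sertoli (pachynema) and other Leydig genes (pachynema and diplonema). No peak in any substage was found for 9 of the 24 other Sertoli genes, 6 of the 19 other Leydig genes and 6 of the 14 other myoid genes, against 35.8% of all protein-coding genes. Chosen after their values were seen, examples of these are Fshr, the receptor of follicle-stimulating hormone on Sertoli cells, Hsd3b1 and Hsd17b3, steroid dehydrogenases of Leydig cells, and Myh11 and Cnn1 of smooth muscle.

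Other cell types of the tissue were called as follows. Macrophage and other leukocyte genes were called in 2 of 12 in leptonema/zygonema, Lyz2 (0.38) and Tyrobp (0.416), and in 0 of 12 in either later substage, for which the upper end of the interval is 24.2%. Endothelial genes were called in 5, 5 and 1 of 12. In leptonema/zygonema these were Erg (0.932), Vwf (0.42), Kdr (0.374), Egfl7 (0.355) and Sox17 (0.328), in pachynema Sox17 (0.897), Flt1 (0.599), Kdr (0.564), Erg (0.475) and Egfl7 (0.451), and in diplonema Sox17 (0.818). Spermatogonial genes were called in 11, 11 and 5 of 14 (78.6, 78.6 and 35.7%), with Sall4 (1.06), Etv5 (1.05), Kit (1.04) and Id4 (1.03) highest in leptonema/zygonema. In diplonema the 5 were Id4 (1.31), Uchl1 (0.772), Etv5 (0.733), Zbtb16 (0.685) and Kit (0.343). Genes of the labelled cell type, the spermatocyte, were called in 14 of 16 (87.5%) in each substage, against 60.2, 60.5 and 51.6% of protein-coding genes, with the highest leptonema/zygonema scores at Meiob (1.32), Hormad1 (1.29), Brdt (1.27) and Sycp1 (1.25). Spermatid genes were called in 14 of 15 (93.3%) in each substage, with the highest leptonema/zygonema scores at Ldhc (1.41), Crem (1.33), Acr (1.32) and Spaca1 (1.32). Prm1 and Prm2 in that list had equal peak numbers and equal highest scores in each substage (0.676, 0.561 and 0.747). They may therefore rest on the same peaks. The shares of these germ cell lists do not tell spermatocytes from the germ cells before and after them. The part that any of these cells has in the calls of the somatic markers was not tested.

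The last lists hold genes known mainly from other organs. They are not free of testis genes, since Gata6 is also known in Sertoli and Leydig cells. Regulators of other tissues were called in 1, 3 and 2 of 16 (6.25, 18.8 and 12.5%). The one in leptonema/zygonema was Lhx2 (0.987). Lhx2 (0.949), Gata6 (0.633) and Foxa2 (0.359) were called in pachynema, and Lhx2 (0.342) and Gata6 (0.342) in diplonema. Terminal products of other tissues were called in 2, 1 and 0 of 19 (10.5, 5.26 and 0%, the last with an upper interval end of 16.8%), which were Ckm (0.787) and Mbp (0.417) in leptonema/zygonema and Ckm (0.383) in pachynema. The shares of the 10 somatic markers, 20, 50 and 30%, lay between those of these lists and those of the spermatocyte genes in each substage, which describes these lists and was not tested.

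**Figure D3:**
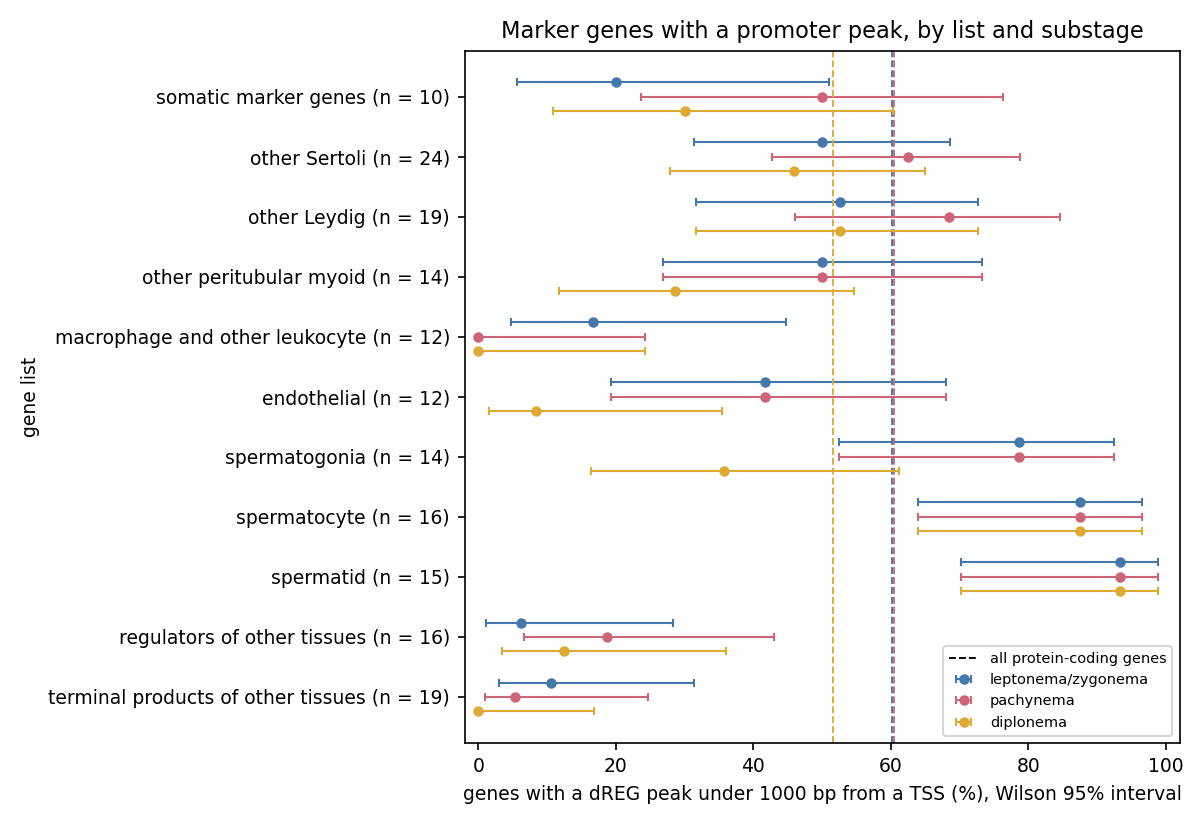
Percent of genes with a dREG peak under 1000 bp from a TSS (horizontal axis) for the 10 somatic markers and 10 wider lists, by substage. Points are percentages with Wilson 95% intervals, which cover counting error only, and dashed lines are all protein-coding genes (60.2, 60.5 and 51.6%). Spermatocyte and spermatid genes lie at 87.5 and 93.3% in each substage, and the somatic markers lie at 20, 50 and 30%.

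CpG-rich promoters initiate in most tissues, whereas promoters of tissue-restricted genes are often CpG-poor. The ratio of observed to expected CpG in the 300 bases around the start (GRCm38, the highest over the gene's protein-coding TSSs, so that more TSSs favour a higher value) was 1.06 for Wt1, 0.847 for Gata4, 0.730 for Cldn11, 0.583 for Sox9 and 0.532 for Cyp11a1, the 5 genes with a call. It was 0.470 for Insl3, 0.316 for Acta2, 0.276 for Cyp17a1, 0.269 for Star and 0.184 for Amh, the 5 without one. On this measure the called and uncalled genes did not overlap, but that depends on the start used and rests in part on starts without a peak. For Insl3, which was not called, the ratio in the RefSeq promoter was 0.568, above the 0.532 of Cyp11a1. For Cyp11a1 the ratio of 0.532 is that at its first TSS, 58006411, which had no peak. At the protein-coding TSS nearest its pachynema peak, 58014671, the ratio was 0.163, and in the RefSeq promoter under the peak it was 0.0541. Both are below the highest ratio of each of the 5 uncalled genes. Single starts of uncalled genes were also low, at 0.161 for Star (25806555) and 0.147 for Cyp17a1 (46673172). For Wt1 the ratio at the TSS inside its peaks, 105126529, was 0.638. Over the protein-coding genes with such a ratio, the median was 0.242, 0.565, 0.699 and 0.843 for genes called in 0, 1, 2 and 3 substages. These are not the full set, since they hold 7828 of the 7855 genes without a call. The genes with a ratio were divided by it into 3 groups of nearly equal size. Acta2, Amh, Cyp17a1 and Star fell in the lowest group, of which 20.1, 19.2 and 14.1% was called in leptonema/zygonema, pachynema and diplonema. Insl3, Sox9, Cldn11 and, by its first TSS, Cyp11a1 were in the middle group, where 68.7, 70.4 and 57.6% of genes and 1, 3 and 1 of these 4 were called. Gata4 and Wt1 were in the highest group, where 91.8, 91.9 and 83.2% of genes were called, against 1, 2 and 2 of this pair. The part of CpG content in the calls of the markers was not tested.

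**Figure D4:**
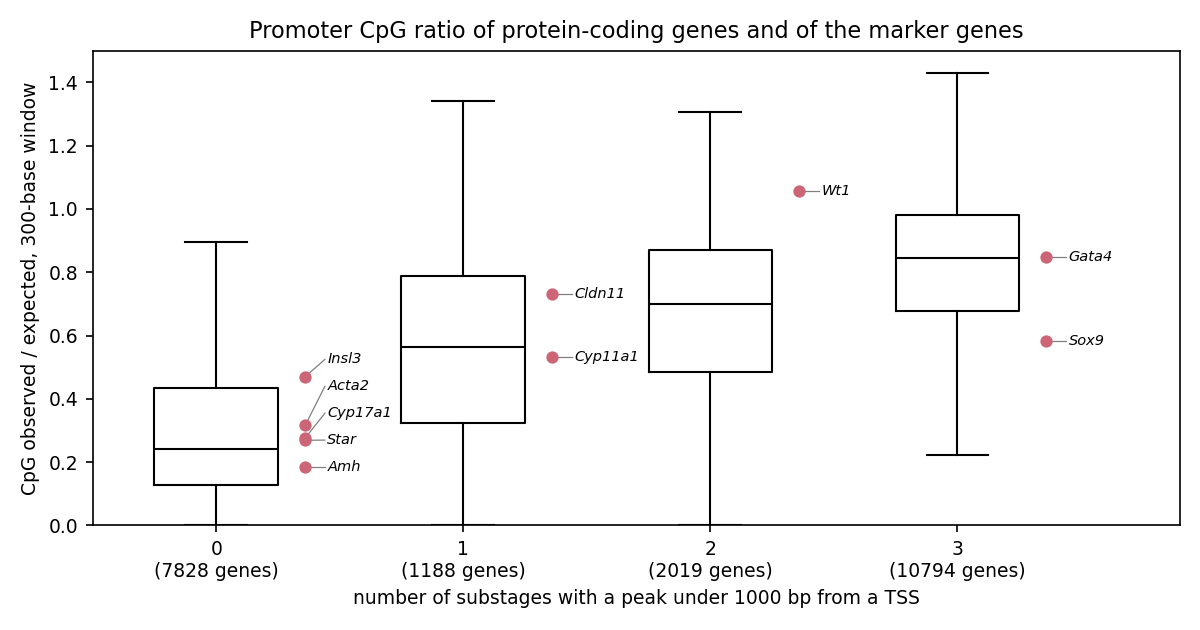
Observed over expected CpG in the 300-base window around the start (vertical axis, ratio) by the number of substages with a peak under 1000 bp from a TSS. Boxes show the quartiles of the protein-coding genes with a ratio in each class, with the median as a line. Whiskers reach the farthest value within 1.5 times the box height. Points are the 10 marker genes, each at the highest ratio over its protein-coding TSSs, which for Cyp11a1 is at a start without a peak. The medians rise from 0.242 to 0.843, and the 5 uncalled markers lie between 0.184 and 0.470.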

How the data were processed

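leChRO-seq was done on 12 libraries, 4 for each of 3 enriched substages. The authors collapsed PCR copies sharing a molecular identifier (PRINSEQ lite), trimmed adapters (cutadapt) and mapped reads to mm10 plus the ribosomal RNA unit (BWA). They ran dREG with default settings, on libraries taken here as merged by substage from the names of the lists. Versions are not given in the sources used here. The labels give single-end reads and the methods paired-end reads. For each peak the authors deposited a dREG score and a p-value, none above 0.05 and not stated to be adjusted or not.

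Distances ran from the peak edge to every GENCODE M21 TSS, and no strand was used. Gene lists, CpG ratios (GRCm38), motifs and Wilson intervals were computed with Python 3.11.15, numpy 2.4.6, pandas 2.3.3 and scipy 1.17.1, with figures by matplotlib 3.10.9. Distance and motif steps were tested on simulated data. The rule named all 10 members, the other gene nearest each peak, up to 4 genes of a wider list by leptonema/zygonema score, and every called gene of a list with 5 or fewer. Members and lists were chosen with earlier results of these data known. The examples of wider-list genes without a peak fell outside the naming rule and were picked after their values were seen. The 10 alternatives changed distance, overlap, TSS set, score, p-value, neighbours or list size. Other assays of the study were not analysed here.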

Additional observations from a re-analysis of the deposited data

How the results depend on the processing

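Of 100 counts recomputed under 10 alternatives, 86 stayed within 1.5 times the reported count. Those 86 include the counts of all protein-coding genes, none of which moved. The other 14, all of them counts of marker genes or of their peaks, follow. With a dREG score of at least 0.5, the marker genes called were 1 in leptonema/zygonema (Gata4), 3 in pachynema (Sox9, Gata4 and Cldn11) and 1 in diplonema (Sox9), against 54.2, 53.8 and 42.5% of protein-coding genes, with 1, 3 and 2 peaks, and 0 genes were called in all 3 substages. With each list cut to its 38603 highest-scoring peaks, the size of the diplonema list, 1 gene and 1 peak were left in leptonema/zygonema and 3 genes and 3 peaks in pachynema, with Sox9 lost in leptonema/zygonema and Wt1 and Cyp11a1 in pachynema, and 1 gene was called in all 3 substages. The diplonema peaks numbered 4 both at a p-value of at most 0.01 and when only peaks containing a TSS were taken. The excess of pachynema over diplonema in called genes, 5 against 3, was thus 3 against 3 in lists of equal size. Of 91 single scores, 3 moved, all for Sox9 in diplonema. That score was 0.533 under 500 bp, with a TSS inside the peak or with no TSS of another gene nearer. Scores whose call was lost under an alternative are not among the 91. A cut on score or list size can remove a highest score but cannot change it, so those settings could move none. A distance of 2000 bp added Amh in diplonema, with a score of 0.301. Cyp11a1 was not called at a p-value of at most 0.01. Wt1 in diplonema and Sox9 in leptonema/zygonema each passed that limit by a deposited p-value of exactly 0. No paired analysis was possible because the libraries of a substage were pooled before calling, and for the same reason no library could be left out. The depth behind each pooled list was not determined here, so a missing call says only that dREG found none in the pooled reads.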
